A study of Homo sapiens with 6 samples.

Results

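Expression of 7 genes known from neurons and glia was examined in MDA-MB-231 cells, a triple negative breast cancer cell line, that had been growing in mouse brain. They are GRIN2B, SNAP91, CALB2, BCAN, CSPG5, EDNRB and CST3, 7 of the 1161 genes in the deposited table. They were chosen by name, with values already known, because their counts were lower in dormant than in proliferating cells, so the difference between the populations is what selected them and is given here as a description without a test. The cells carried green fluorescent protein (GFP), were labelled with the vital dye CV before injection by the internal carotid route into female C.B-17 SCID mice aged 6-8 weeks, and were sorted from the brain at day 28. Cells that had kept the dye are called dormant (GFP+CV+) and cells that had diluted it by division proliferating (GFP+CV-). Each population gave 3 libraries, and for each replicate number both populations were sorted from 1 shared pool, of 10, 10 and 9 mice. Every group thus rests on 1 cell line, on pooled animals and on an immunodeficient host, and mouse reads were removed by the authors.

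GRIN2B encodes a subunit of the NMDA receptor, the glutamate-gated channel of excitatory synapses that lets calcium in when it opens. SNAP91 (AP180) helps to assemble the clathrin coat that retrieves synaptic vesicles, and CALB2 (calretinin) is an EF-hand protein that buffers calcium in groups of interneurons. BCAN (brevican) and CSPG5 (neuroglycan C) are chondroitin sulfate proteoglycans of brain extracellular matrix and neural cell surfaces. EDNRB, the endothelin B receptor, is found on astrocytes and endothelial cells and is needed for neural crest development. CST3 (cystatin C) is a secreted inhibitor of cysteine cathepsins that most cell types make, and it is abundant in astrocytes and microglia, so it marks neural tissue less narrowly than the others.

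The promoter sequences show what the genes share and where they differ in sequence. RefSeq windows on GRCh38.p14 were found for 6 of the 7 genes, with 13 annotated starts among them. Windows of 250 bases upstream of a start are printed 5′ to 3′ on the strand of the gene, all on the minus strand: those of GRIN2B and CSPG5, the genes without a count in any dormant library, that of CST3, the abundant gene, and the EDNRB window that holds the single match to a part of the RE1 element. RE1 is bound by REST, a repressor of neuronal genes. Capitals mark GGGCGG (GC box) on either strand in the first 3 windows and, in that of EDNRB, the right part of RE1, GGACAGC, read on the opposite strand.
GRIN2B, chr12:13981603-13981852: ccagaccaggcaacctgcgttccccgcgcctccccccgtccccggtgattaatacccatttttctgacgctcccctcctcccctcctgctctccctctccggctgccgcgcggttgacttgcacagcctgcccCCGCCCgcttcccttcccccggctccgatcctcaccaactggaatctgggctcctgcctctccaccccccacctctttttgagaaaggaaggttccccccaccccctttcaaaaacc
CSPG5, chr3:47578866-47579115: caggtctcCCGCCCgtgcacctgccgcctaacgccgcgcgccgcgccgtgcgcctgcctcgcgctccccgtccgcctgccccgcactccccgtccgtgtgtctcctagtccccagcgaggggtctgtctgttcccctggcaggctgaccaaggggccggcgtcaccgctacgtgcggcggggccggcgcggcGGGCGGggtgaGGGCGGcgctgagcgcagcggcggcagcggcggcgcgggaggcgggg
CST3, chr20:23637956-23638205: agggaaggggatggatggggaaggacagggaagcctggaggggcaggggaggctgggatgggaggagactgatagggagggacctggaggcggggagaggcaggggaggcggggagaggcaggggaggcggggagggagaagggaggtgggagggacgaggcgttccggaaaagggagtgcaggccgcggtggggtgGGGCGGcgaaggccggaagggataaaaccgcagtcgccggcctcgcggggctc
EDNRB, chr13:77919683-77919932: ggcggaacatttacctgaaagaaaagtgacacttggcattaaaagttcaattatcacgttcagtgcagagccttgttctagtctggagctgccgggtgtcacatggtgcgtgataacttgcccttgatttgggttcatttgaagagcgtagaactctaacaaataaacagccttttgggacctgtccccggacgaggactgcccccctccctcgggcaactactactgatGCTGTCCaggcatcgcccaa
The GC box occurred in 8 of the 13 windows and in at least 1 window of each of the 6 genes, against 42.6% of all 35116 windows of this length. In the printed windows it began 117 bases upstream of the start in GRIN2B and 53 bases upstream in CST3. CSPG5 held 3 matches, at 242, 58 and 47 bases upstream. BCAN held 5, including a directly adjoining pair, the only neighbouring matches, and no match overlapped another motif. The right part of RE1 began 20 bases upstream of an EDNRB start that lies 851 bases from the main one. The window of the main EDNRB start held no part of RE1. Of all windows, 4.76% held the right part. The left part of RE1, TTCAGCAC (0.732% of all windows), the cyclic AMP response element TGACGTCA (1.65%), the E-box CACGTG (6.34%) and the TATA box TATAAA (10.7%) were not found in the 13 windows on either strand. At the main start the GC content was 64.4% in GRIN2B, 74.8% in SNAP91, 74% in BCAN, 79.6% in CSPG5, 58.4% in EDNRB and 70.8% in CST3, and the median of all windows was 58.0%. These matches describe letters and say nothing of binding.

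The genes lie on 7 chromosomes and differ greatly in size. On GRCh38 with GENCODE release 44, GRIN2B (ENSG00000273079.5) spans chr12:13437942-13982002 on the minus strand, 544 kb. SNAP91 (ENSG00000065609.14) spans chr6:83552880-83709691 and EDNRB (ENSG00000136160.15) chr13:77895481-77975529, both on the minus strand, with 157 and 80.0 kb. CALB2 (ENSG00000172137.18) at chr16:71358713-71390436 and BCAN (ENSG00000132692.18) at chr1:156641390-156659532 lie on the plus strand. CSPG5 (ENSG00000114646.9) at chr3:47562238-47580792 and CST3 (ENSG00000101439.8) at chr20:23626706-23638473 lie on the minus strand. The last of these is the shortest, with 11.8 kb against a median of 29.6 kb for the 951 listed protein-coding genes.

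The table gives estimated counts per gene and normalised read counts, which are counts divided by 1 size factor per library. The listed genes summed to between 11413726 and 17928784 estimated counts in proliferating and between 7978657 and 10695947 in dormant libraries, sums over the listed genes that are not the depth, which is unknown. All listed genes had been selected by the authors on these same libraries, so counts of calls over them are a background only. By edgeR's quasi-likelihood test 99.7% of the listed genes passed an adjusted p of 0.05, and 50.0% were called lower in dormant cells. All 7 genes were among those called lower, which follows from how they were chosen. Where a population had no count, a floor of 3 counts over its 3 libraries was used for the fold.

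All 7 genes were lower in every dormant library than in every proliferating library, as were 50.2% of the listed genes. All 7 were at least 2-fold lower in the fit, and so were 23.7% of the listed genes, while 42.8% were at least 2-fold higher. Since the genes were picked for this difference, nothing is read from these shares. GRIN2B, BCAN, CSPG5 and EDNRB had at most 3 counts in every dormant library, as did 12.1% of the listed genes. SNAP91 had 2 to 4 counts in each dormant library, CALB2 14 to 64 and CST3 36445 to 111956.

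**Figure D1:**
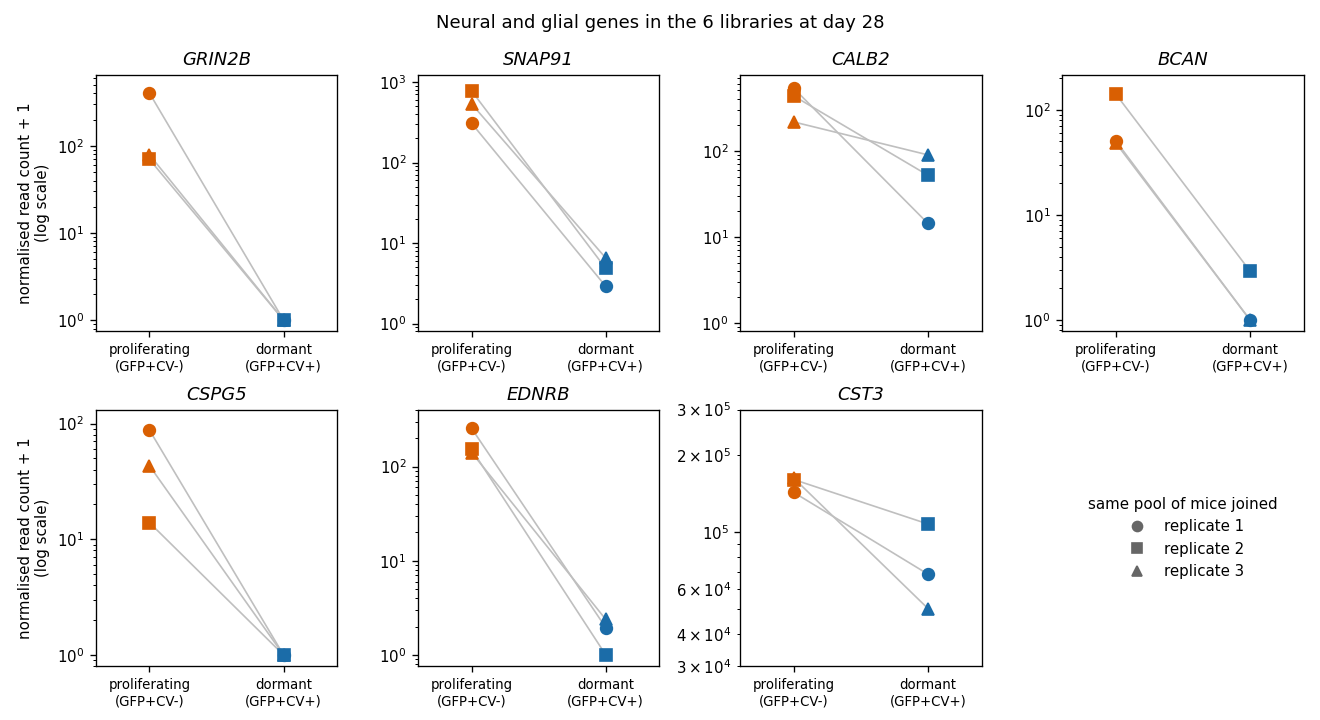
Normalised read count plus 1 on a log scale for each of the 7 genes in the 3 proliferating (orange) and 3 dormant (blue) libraries, with grey lines joining libraries from the same pool of mice. GRIN2B and CSPG5 sit at the bottom line (a count of 0) in all dormant libraries, and CST3 is drawn on its own range because its lowest library is at 50344.

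GRIN2B had 556, 64 and 96 estimated counts in proliferating replicates 1, 2 and 3 and 0 in each dormant library. Its normalised read counts were 403, 69.0 and 78.0, a mean of 183 ± 190 (SD, n = 3). Replicate 1 was far above the other two proliferating libraries, and no dormant library overlapped them. With the floor of 3 counts over the dormant libraries, GRIN2B was at least 190-fold lower in dormant cells. The bound fell to 69.6 without proliferating replicate 1, to 119 without dormant replicate 1 and to 120 without dormant replicate 2.

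Proliferating libraries held 422, 717 and 655 counts of SNAP91 and dormant libraries 2, 4 and 4, or normalised read counts of 306, 773 and 532 against 1.90, 3.84 and 5.53. It was the most abundant by this measure of the genes nearly absent from dormant cells, and its lowest proliferating library stood 55.4-fold above its highest dormant library. The ratio of summed counts was 143 (95% exact interval 77.5 to 298), and the fitted log2 fold change was -7.15 ± 0.83 (SE). Within the pools of mice the ratio was 161, 201 and 96.3. Such intervals cover counting error only, and they are too narrow if both mates of a read pair were counted, since 23 of the 33 nonzero counts of these genes were even.

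CALB2 behaved less uniformly. Its counts were 728, 399 and 264 in proliferating cells and 14, 53 and 64 in dormant cells, with normalised read counts of 528, 430 and 215 against 13.3, 50.9 and 88.4. Calretinin RNA was thus detected in every library of both populations. The pool with the highest proliferating value had the lowest dormant value, so the ratio within pools was 39.6, 8.46 and 2.43. The summed counts gave a ratio of 8.46 (95% exact interval 7.07 to 10.2) and the fit a log2 fold change of -2.94 ± 0.84 (SE).

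BCAN and CSPG5, the brain proteoglycans, had the lowest normalised read counts of the 7 genes before division by length. BCAN had 68, 129 and 58 counts in proliferating libraries, and 2 counts in dormant replicate 2 with none in the other two. Its normalised read counts averaged 78.5 ± 52.5 (SD, n = 3) in proliferating and 0.640 ± 1.11 in dormant cells. The ratio of summed counts was 102 (95% exact interval 27.8 to 843), and the fitted log2 fold change was -6.60 ± 1.24 (SE). Brevican's value rests on those 2 counts: without dormant replicate 1 the ratio was 63.6, and without dormant replicate 2 no count was left and BCAN was at least 42.7-fold lower. The counts of CSPG5 were 120, 12 and 52 in proliferating libraries and 0 in each dormant library, with normalised read counts of 87.0, 12.9 and 42.3. Its proliferating replicate 2 held only 12 counts, so the separation from the dormant libraries was narrowest in counts there. CSPG5 was at least 48.8-fold lower in dormant cells, or at least 27.9-fold without proliferating replicate 1 and 30.6- and 30.8-fold without dormant replicates 1 and 2.

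Proliferating libraries held 349, 140 and 172 counts of EDNRB, and dormant libraries held 1, 0 and 1. The normalised read counts were 253, 151 and 140 against 0.951, 0 and 1.38, and the means 181 ± 62.4 and 0.777 ± 0.707 (SD, n = 3). The endothelin B receptor was therefore close to undetected in dormant cells and present in all 3 proliferating libraries. The ratio of summed counts was 263 (95% exact interval 72.6 to 2178), the fitted log2 fold change -7.74 ± 1.02 (SE), and the ratio 166 without dormant replicate 2.

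CST3 stood apart in level. Its counts were 196780, 148512 and 199479 in proliferating cells and 72072, 111956 and 36445 in dormant cells, and it ranked 15 of 1161 listed genes by mean normalised read count. The normalised read counts were 142633, 160129 and 162128 against 68528, 107477 and 50344, so that the populations did not overlap but came within 1.33-fold of each other. Cystatin C RNA remained abundant in dormant cells. The ratio of summed counts was 1.97, and within pools it was 2.08, 1.49 and 3.22. The fitted log2 fold change was -1.04 ± 0.25 (SE), at the edge of a 2-fold difference. It came to -0.82 without dormant replicate 3, and CST3 was also under 2-fold without dormant replicate 1.

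Scaling of the libraries shifted the fitted changes of all 7 genes the same way. CST3 had the smallest fold change of the 7 under each scaling, though not the smallest shift. Under the authors' size factors the median log2 fold change of the listed genes was -0.33. It was -0.04 when libraries were scaled to equal totals over the listed genes and -0.91 with median ratios over them. CST3 moved with it, from -1.04 to -0.74 and -1.59, so that relative to the median it was -0.71, -0.70 and -0.67. The share of edgeR calls that were lower in dormant cells was 50.2%, 39.2% and 62.8% under the same 3 scalings. Among the 7 genes the median log2 fold change was -6.60 with GRIN2B and CSPG5 set at their bounds.

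**Figure D2:**
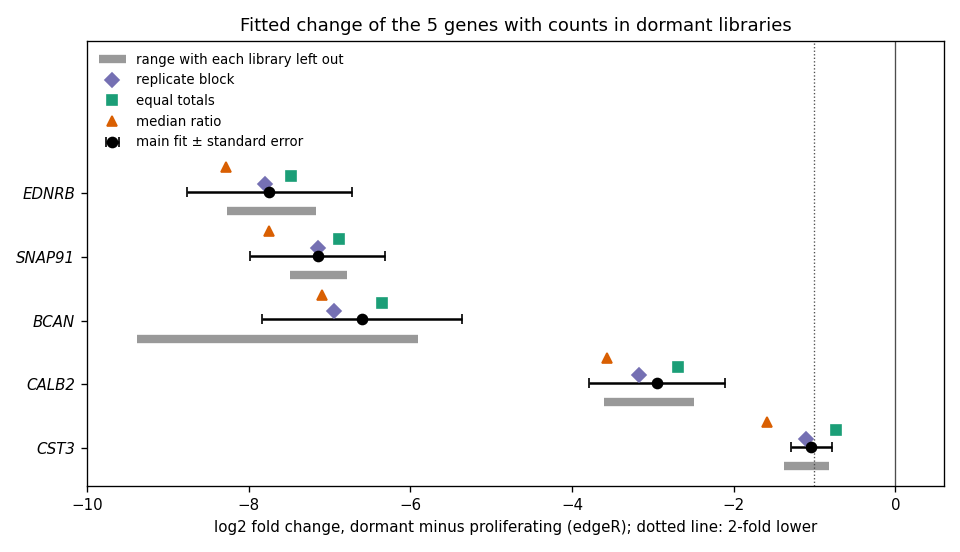
Fitted log2 fold change (dormant minus proliferating) on the horizontal axis for the 5 genes with counts in dormant libraries, with the standard error as bars (black), other fits as colored symbols and the range over fits that leave out 1 library as a grey bar. CST3 crosses the dotted 2-fold line under equal totals (-0.74), and the grey bar of BCAN reaches -9.38 without dormant replicate 2.

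Levels of different genes were compared as normalised read counts per kilobase of exon. In proliferating cells CST3 came first, with a mean of 42900, followed by CALB2 with 230, SNAP91 with 80.8 and EDNRB with 32.3. BCAN had 16.5, CSPG5 10.9 and GRIN2B 5.89 per kilobase. CST3 lay far above the rest, CALB2 (126 to 310) lay above SNAP91 (46 to 116) in all libraries, and SNAP91 lay above EDNRB (24.9 to 45.1). The ranges of EDNRB and BCAN (9.89 to 29.2), of BCAN and CSPG5 (2.96 to 19.9), and of CSPG5 and GRIN2B (2.22 to 12.9) overlapped, so these neighbours in the order do not differ beyond the spread between libraries, while EDNRB lay above CSPG5 and GRIN2B in all libraries. GRIN2B has 31.1 kb of annotated exon, more than any transcript need contain, which lowers its value per kilobase. In dormant cells CALB2 had 29.9 and SNAP91 0.565 per kilobase.

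Other genes of the same pathways did not share one direction. Of 45 genes on a list of glutamate receptors, scaffolds and transporters, 6 are in the table. Beside GRIN2B, 1 was called lower and 4 higher. MPP2, a membrane scaffold protein, had normalised read counts of 154, 108 and 399 in proliferating libraries and none in dormant ones, at least 213-fold lower. That bound was 127 without proliferating replicate 3 and 134 without dormant replicate 1 or 2. GRM3, a metabotropic glutamate receptor, was higher in dormant cells by 4.49 ± 0.94 (SE) on the log2 scale, with normalised read counts of 8.70, 79.8 and 69.9 against 496, 1231 and 1815. The glial glutamate transporter SLC1A3 (2.12) and the scaffold DLG3 (1.08) were also higher.

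Of 42 genes of the synaptic vesicle cycle and the clathrin coat, 7 are listed. Beside SNAP91, 3 were called lower and 3 higher. RIMS3, a protein of the presynaptic active zone, had 42.0, 204 and 50.4 normalised read counts in proliferating libraries and none in dormant ones, at least 82.0-fold lower. Its bound was 43.2 without proliferating replicate 2 and 51.4 and 51.7 without dormant replicates 1 and 2. The small GTPase RAB37 had a log2 fold change of -7.45, while the vesicle protein SYNGR1 (3.27) and the syntaxin STX3 (1.98) were higher.

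EF-hand proteins gave 10 listed genes of 37, with 4 called higher and 5 lower beside CALB2. TESC (4.66), EFHD1 (2.80), the neuronal calcium sensor NCALD (2.38) and CALML4 (1.96) were higher on the log2 scale. All 5 lower ones were S100 proteins, and none of them was as much as 2-fold lower under the authors' size factors.

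Other genes of the chondroitin sulfate list went in both directions. Of 36 genes on the list of chondroitin sulfate proteoglycans and their matrix, 8 are in the table, and beside BCAN and CSPG5 there were 5 called higher and 1 lower. The small leucine-rich proteoglycans BGN (8.88) and DCN (8.25) were higher in dormant cells, with normalised read counts of BGN of 14.5, 10.8 and 9.75 against 4528, 7595 and 4622. PTPRZ1, a receptor phosphatase of glial precursors, was higher by 6.49 with libraries that overlapped, 0, 28.0 and 3.25 against 22.8, 715 and 2003. SDC3, a syndecan of neural cells, was lower, at -3.33. DSEL (1.93) and B3GAT3 (0.73, or 0.13 under median ratios), also called higher, encode enzymes and not proteoglycans. Apart from these enzymes, BGN, DCN and PTPRZ1 were higher and BCAN, CSPG5 and SDC3 lower.

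EDNRB was the only one of 8 genes of the endothelin system in the table. Of 26 cystatins and cysteine cathepsins the table holds CST3 and CST4, the latter a salivary type cystatin, which had a log2 fold change of -1.89 ± 0.45 (SE). Both belong to one family, and reads that map to several places were counted, so the value of CST4 is uncertain. Axon guidance and neurotrophic genes had 11 listed of 47, 7 called higher and 4 lower. The Nogo receptor RTN4R and the growth factor NRTN had no counts in dormant cells and were at least 103-fold and 92.7-fold lower. Without proliferating replicate 2 the bounds were 62.6 and 15.8, as NRTN ranged from 8.13 to 329 among proliferating libraries. They were 64.6 and 58.1 without dormant replicate 1 and 64.9 and 58.4 without dormant replicate 2. The netrin receptor UNC5C had a ratio of summed counts of 325 (95% exact interval 89.8 to 2691), which was 204 and 205 without dormant replicates 1 and 2 and became a bound of at least 161 without dormant replicate 3, and the neurotrophin receptor NGFR was higher by 3.57. The genes named from these lists kept their sign under all 3 scalings.

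**Figure D3:**
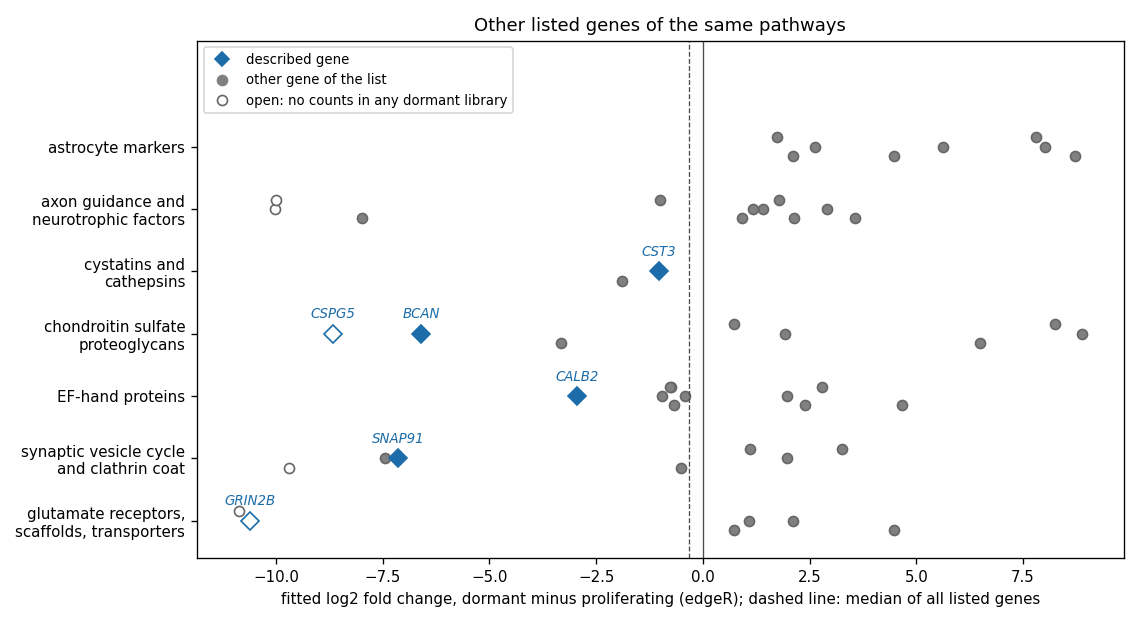
Fitted log2 fold change (dormant minus proliferating) for the other listed genes of 6 pathway lists and of the astrocyte markers, with the 7 genes except EDNRB, whose list holds no other, as diamonds. Genes lie on both sides of 0 in 5 of the lists, all 8 astrocyte markers lie to the right, and open symbols, which have no counts in dormant libraries, are fitted values that depend on the prior count.

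Markers of brain cell types differed in direction from list to list. Of 17 astrocyte markers 8 are listed and all 8 were called higher in dormant cells. All 8 were at least 2-fold higher, as were 42.8% of the listed genes. Their summed normalised read counts were 1811 to 2873 in proliferating and 17011 to 29082 in dormant libraries. They include APOE (8.72) and SPARCL1 (8.02), of which APOE had 4 counts in all proliferating libraries together, and GRM3 and SLC1A3 of the glutamate list. EDNRB and CST3, also made by astrocytes, are not on this list and were lower. Of 18 neuron markers L1CAM was higher (1.18) and the glycolytic enzyme ENO2 lower (-0.61). DLL1 was lower and PTPRZ1 higher among 11 markers of oligodendrocyte precursors, with sums of 52.0 to 366 and 23.8 to 2003 that overlapped. CLDN11, the one listed of 11 oligodendrocyte markers, was higher (4.39). Of 18 markers of microglia or macrophages 6 are listed, with 5 lower, among them ADGRE1 without a count in dormant cells and P2RY6, and CD4 higher. Their sums were 60405 to 120425 in proliferating and 37566 to 48171 in dormant libraries. Most of each sum was CD74, also lower, with 73404, 49796 and 106366 against 33296, 44148 and 40692. Of 11 endothelial markers 3 are listed: MFSD2A and ABCG2 were lower and EMCN higher, with sums of 257 to 1050 and 362 to 1373. All 9 listed of 13 fibroblast or mural markers were higher, with BGN, LUM and DCN the largest in fold. Their sums were 4718 to 8028 against 51691 to 85483, mostly from COL1A1 and COL3A1. The part of these cell types in the lower values was not tested.

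MDA-MB-231 markers showed a smaller shift in the direction of CST3. Of 12 such markers 8 are listed, and all 8 were called lower, as were 50.0% of the listed genes. Their median was -0.76 on the log2 scale, against -0.33 for all listed genes. Their summed normalised read counts were 589210 to 657339 against 337686 to 406208. KRT81 was the one of them at least 2-fold lower under the authors' size factors, and all 8 were under median ratios. Under equal totals KRT81 was at -1.85, and the rest lay between -0.65 (S100A4) and -0.22 (KRT18). In such bulk libraries fewer cells that express a gene and less RNA per cell cannot be told apart. Zero counts were also more frequent in dormant cells among the listed genes. Of these, 70 had no count in any dormant library, 36 of them protein coding, against 3 in any proliferating library. The paper also reports that dye-retaining cells were only a small fraction of the cancer cells isolated from the brains. The part of either in the values of GRIN2B, BCAN, CSPG5 and EDNRB was not tested.

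REST was higher in dormant cells. Its normalised read counts were 2840, 2253 and 2718 in proliferating and 9328, 4587 and 9239 in dormant libraries. The log2 fold change was 1.57 ± 0.29 (SE), with 1.86 under equal totals and 0.96 under median ratios. The populations did not overlap, and its part in the lower neural genes was not tested.

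Listed genes with the most similar profiles over the 6 libraries were found by the root mean square difference of centred log2 values. The nearest to GRIN2B was the retinol dehydrogenase gene RDH16 (0.262), with the non-coding LINC00626 next (0.397). ASIC1, a proton-gated ion channel of neurons (0.422), and JAKMIP2 (0.433) were nearest to SNAP91. To BCAN it was the cytokine receptor gene CRLF2 (0.276), listed in copies on X and Y with identical counts, to CSPG5 EPOP (0.349) and FAM78B (0.405), and to EDNRB the protocadherin PCDH1 (0.335) and the pseudogene HTATSF1P2 (0.355). CALB2 had no close match, with LINC01234 (0.629) and FP565260.3 (0.773) nearest. SLC9A3R1 (0.103) and TCTN3 (0.116) followed CST3 most closely. As the table holds only genes called between the populations, such likeness is a description over 6 libraries.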

How the data were processed

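The authors sorted cells directly into extraction buffer, made full-length cDNA by the Smart-seq2 protocol and Nextera XT libraries, aligned trimmed reads with STAR 2.7 to joined human GRCh38.p12 and mouse GRCm38.p6 assemblies, and counted with multi-mapping reads included. The deposited table holds estimated counts per gene (partly fractional, rounded here) and the authors' normalised read counts, a signal value equal to the rounded count over 1 DESeq2 size factor per library. It lists only genes the authors called. Columns of their own comparison (mean, fold changes, standard errors, statistics and p-values) were not used.

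The fit was edgeR 4.0.16 (quasi-likelihood, R 4.3.3) over all 1161 listed genes and 6 libraries with the authors' size factors and population as the only term. P-values were two-sided and adjusted by Benjamini-Hochberg over the table. They set the difference between populations against the spread between libraries within a population, of which differences between pools of mice are a part. That spread was estimated only over genes the authors had called on these libraries. limma 3.58.1 on log2 of the normalised read count plus 1 or 5, DESeq2 1.42.0, other scalings, a replicate block, a low count filter and fits without each library were alternatives. Scripts were tested on simulated data. A count of 0 was given a floor of 3 counts over the population, and intervals are exact at 95%. Coordinates come from GENCODE release 44, matched by Ensembl identifier for 1156 listed genes, and promoters from RefSeq. Tables and plots were made in Python 3.11.15 with pandas 2.3.3 and matplotlib 3.10.9, and intervals with scipy 1.17.1.

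The 7 genes, the pathway and marker lists and REST were chosen with earlier results of these data known. Named beside the 7 genes were, per pathway list, up to 4 other listed genes by size of change, up to 3 per marker list, REST, and the 2 nearest profiles per gene. A marker that this rule names is not reported here. Genes outside that rule were named after their values were seen. Pairing comes from the shared pools of mice: deviations of same-numbered libraries from their group means correlated at 0.057, -0.018 and 0.001.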

Additional observations from a re-analysis of the deposited data

How the results depend on the processing

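Of 91 log2 fold changes of the 7 genes recomputed under 13 alternative settings, 78 moved by less than the SD between replicates, 13 moved by more and 0 turned sign. Leaving out a library could not turn a sign, since the populations did not overlap, and the low count filter repeated the main values. The number of the 7 genes at least 2-fold lower was 7 in all settings except equal totals (6) and the fits without 1 library (6 to 7). The number of non-overlapping genes was 7 under both other scalings. It was also 7 without each library, which was fixed in advance, since leaving out a library cannot make separated populations overlap. Listed genes at least 2-fold lower numbered 275, 562 under median ratios, 244 under equal totals and 270 to 294 without each library. Those past the adjusted p of 0.05 numbered 1157, 948 under equal totals, 931 under median ratios and 1089 to 1135 without each library. With the replicate block 1097 listed genes passed, 281 were at least 2-fold lower, and all 7 genes stayed so. The low count filter removed no gene. With pseudocounts of 1 and 5, limma gave smaller changes for the genes with few or no dormant counts: GRIN2B -7.03 and -4.76, CSPG5 -5.23 and -3.09, BCAN -5.61 and -3.73, EDNRB -6.72 and -4.97, and SNAP91 -5.88 at 5.

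Depth is unknown, only genes called on these libraries are listed, and 4 of the genes have at most 3 counts in each dormant library, so their folds are limited by counting and by the floor.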

Other observations

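Other listed genes of neurons, picked here after their values were seen, also went both ways. The proton-gated channel ASIC1 had normalised read counts of 106, 229 and 137 in proliferating libraries and none in dormant ones, and the hypothalamic hormone gene GNRH1 had 122, 60.4 and 38.2 against none. The adrenergic receptor gene ADRA1B (15.2, 63.6 and 119) and the unconventional myosin MYO16 (175, 57.1 and 17.9) likewise had no count in dormant libraries. The serotonin receptor gene HTR7 had 166, 643 and 116 against 0, 1.92 and 0. Single dormant libraries held most of what remained of the calcium channel subunit CACNA2D4 (165, 609 and 1470 against 3.80, 73.0 and 2.76) and of the forebrain transcription factor FEZF1 (418, 233 and 382 against 22.8, 1.92 and 0). In the other direction, the neuropeptide gene UCN had 175, 21.6 and 3.25 against 1725, 694 and 3697, the synaptic organiser C1QL3 49.3, 35.6 and 101 against 350, 221 and 540, and the adhesion molecule CADM1 1435, 2077 and 3794 against 5618, 5742 and 9150.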
